A study of Mus musculus with 6 samples.

Results

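The genes described here encode the initiation and elongation factors of cytosolic protein synthesis, with a few regulators that carry the same names. They were taken by name from the deposited expression table, as the symbols that begin with Eif1 to Eif6, Eef1 or Eef2, leaving out Eif2ak2 and Eif2s3y. This gave 57 genes of 10988 in all. RNA sequencing compared 4 Ddx5 knockout (KO) lines of mouse embryonic stem cells with 2 wild-type (WT) libraries of the parental MPI-II line. Ddx5 encodes an RNA helicase, also called p68. Each KO line was a single clone, made with a Cas9 nickase and 2 guide RNAs aimed at exon 2 of the gene and selected with G418. All cells, KO and WT, were cultured on feeder cells in serum, with the MEK inhibitor PD0325901, the GSK3 inhibitor CH99021 and leukemia inhibitory factor. The WT libraries are numbered as replicates of 1 line. Nothing says that they came from separate cultures, so the spread between them may be technical. The p-values here cover a spread between libraries, pooled from the 4 KO lines and the 2 WT libraries and assumed equal in both groups.

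Initiation factors bring the initiator tRNA and the small ribosomal subunit to the start codon of an mRNA, and elongation factors then deliver tRNAs and move the ribosome along. The cap-binding complex eIF4F recruits the mRNA, eIF3 is the large scaffold on the small subunit, and eIF2 carries the initiator tRNA, is recharged by eIF2B and is switched off when stress kinases phosphorylate it. In embryonic stem cells protein synthesis is known to be held comparatively low and to rise on differentiation.

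Values are normalized expression scores, called units below, with no fixed unit and no known sequencing depth. The highest values form steps shared by many genes, up to a ceiling of 78894 units. Ddx5 itself (chromosome 11, 106780355 to 106789185, build mm10) had 5854, 8450, 12793 and 5659 units in KO lines 1 to 4, against 36433 and 36436 units in the WT libraries, a log2 fold change of -2.23 (SE 0.317, adjusted p = 0.00807, limma). Both WT values of Ddx5 lay on the same step, with the next steps 1.11 above and 0.29 below on the log2 scale. The size of its difference is therefore coarse. In WT replicate 2, 131 genes were listed at 0, while each of the remaining 5 libraries listed 13 to 19. All 10 stem cell markers examined were detected in every library, with 1 higher and 1 lower in KO. Of 15 measured fibroblast markers, which report on feeder cells, 13 were lower in KO, and the list had a median log2 fold change of -2.51. Col1a2, a collagen gene, had 440, 180, 304 and 250 units in KO lines, against 9391 and 3548 units in WT libraries. The summed level of the list, carried mostly by the uncalled Fn1 at 36452 units in each KO line and 36452 and 29855 units in WT libraries, lay between 42464 and 45197 units in the KO lines and between 54109 and 79320 units in the WT libraries, and no marker was at 0 in any library. The part of feeder RNA in the results below was not tested. In such bulk RNA, fewer cells of a type and less RNA per cell cannot be told apart.

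Loss of Ddx5 came with small differences in translation factor transcripts, more of them downward. By an adjusted p below 0.05 in limma, 8 of the 57 genes fell in KO (14.0%), where 7.34% of all genes did, and 2 rose (3.51%), where 9.75% of all genes did. In either direction 17.5% were called, a share near the 17.1% of all genes. The median log2 fold change was -0.12 for the 57 genes and 0.04 for all genes, and 68.4% of the 57 had a negative value, against 45.7% of all genes. Only Eif4g3 reached a log2 fold change of 1 in size (1.75% of the 57 genes, 9.87% of all genes). The 4 KO lines lay below both WT libraries for 18 genes (31.6%, against 19.6% of all genes) and above both for 5 (8.77%, against 24.1%), so that the groups did not overlap for 40.4% of the 57 and 43.7% of all genes.

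**Figure D1:**
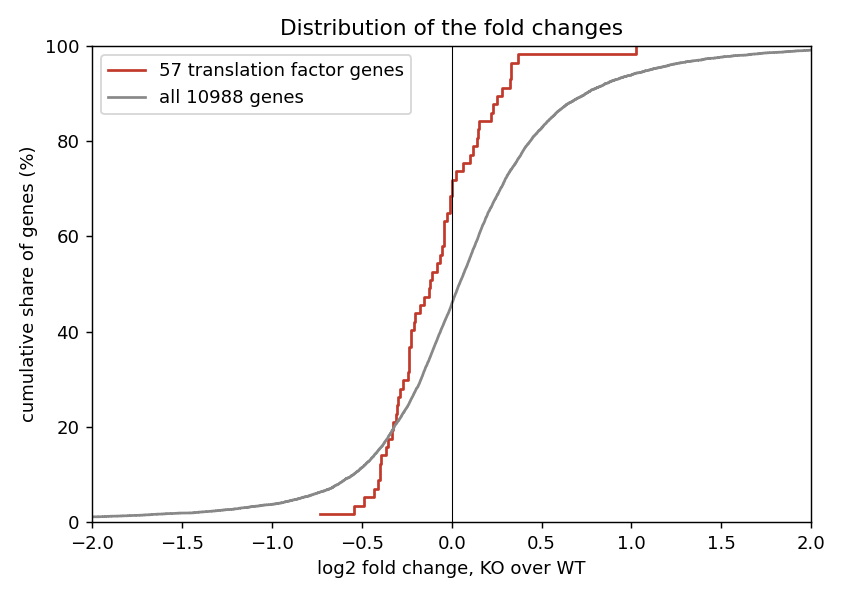
Cumulative share of genes (%) against the log2 fold change, KO over WT, for the 57 translation factor genes and for all 10988 genes. The curve of the 57 genes runs to the left of the curve of all genes over most of its length, with medians of -0.12 and 0.04.

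The 10 called genes depended on which libraries entered the fit. With any 1 library left out, all 10 kept the sign of their fold change. That was fixed in advance, because the groups do not overlap in any of them. None of the 10 passed without KO line 2 or without KO line 3. All 57 genes then gave 0 calls in limma, while 4.30% and 5.21% of all genes still passed. At an unadjusted p below 0.05 there were 18 and 16 of the 57. The share of all genes at that unadjusted level is not given, so such counts, here and below, do not show an excess. Omitting KO line 1 gave 6 calls among the 57, 5 of them from the 10 and Eif4ebp1 added, while 11.1% of all genes passed. Omitting KO line 4 gave 5, all from the 10, with 13.2% of all genes. With WT replicate 1 omitted, 20 members and 30.1% of all genes passed, so calls rose across the whole table. With WT replicate 2 omitted, 3 members and 13.5% of all genes passed. Of those 20, 8 were among the 10. Without a mean-variance trend in eBayes, Eef1b2, Eef1e1, Eif2b2 and Eif4g3 kept their calls, while 15.4% of all genes passed. Eif1, Eif1a, Eif3k, Eif3l, Eif4g2 and Eif6 lost theirs in that fit (adjusted p 0.0534 to 0.0793, limma).

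**Figure D2:**
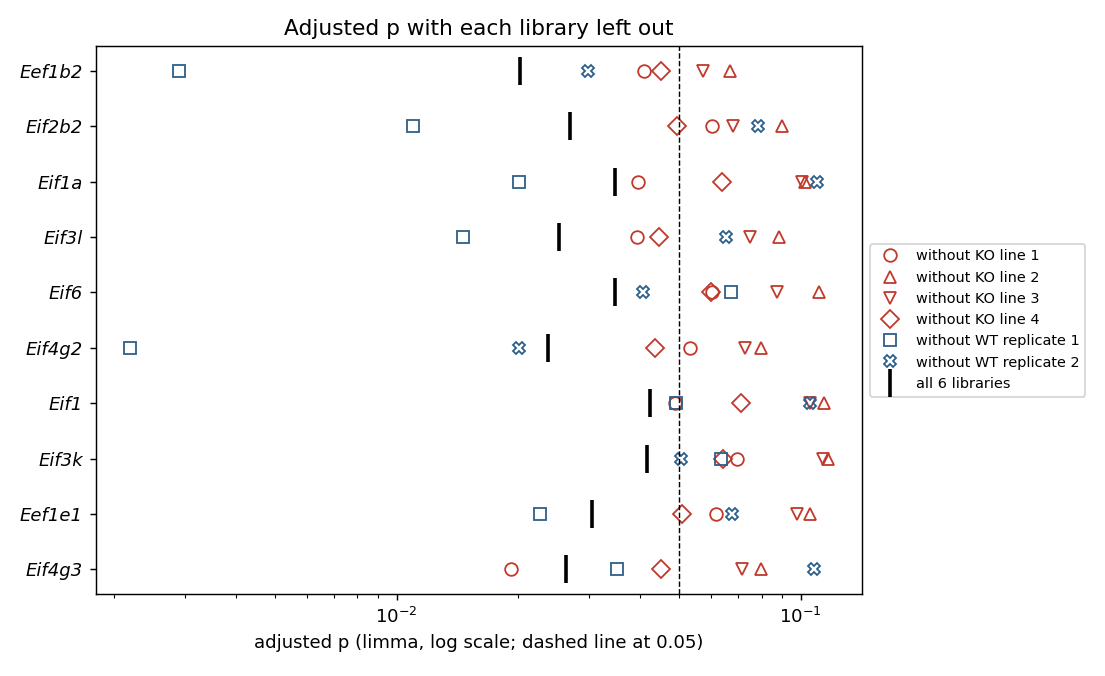
Adjusted p (limma, log axis) of the 10 called genes with all 6 libraries and with each library left out in turn, with a dashed line at 0.05. All 10 genes lie right of the line without KO line 2 or KO line 3, and Eif3k does so in all 6 fits.

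Promoter sequences were at hand for 46 of the 57 genes, from 250 bases before to 50 bases after the annotated start (RefSeq, GRCm38.p6, the most upstream start of each gene in that table, which can differ from the gene positions given here). They are printed for the 3 genes that fell and carried the ETS core, a motif of the ETS factor family found near the start of many housekeeping genes. The motif searched was CCGGAAGT on either strand. The regions are chr1:63176581-63176880 (plus strand) for Eef1b2, chr12:85219231-85219530 (plus strand) for Eif2b2 and chr15:79074973-79075272 (plus strand) for Eif3l. Capitals mark the ETS core or its reverse complement ACTTCCGG, and the CCAAT box or its reverse complement ATTGG.
Eef1b2: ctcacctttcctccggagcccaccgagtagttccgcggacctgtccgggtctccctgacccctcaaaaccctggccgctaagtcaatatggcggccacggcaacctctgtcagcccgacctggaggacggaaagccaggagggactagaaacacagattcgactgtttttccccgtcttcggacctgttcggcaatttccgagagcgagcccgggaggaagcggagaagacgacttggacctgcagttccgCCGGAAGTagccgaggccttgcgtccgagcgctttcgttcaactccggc
Eif2b2: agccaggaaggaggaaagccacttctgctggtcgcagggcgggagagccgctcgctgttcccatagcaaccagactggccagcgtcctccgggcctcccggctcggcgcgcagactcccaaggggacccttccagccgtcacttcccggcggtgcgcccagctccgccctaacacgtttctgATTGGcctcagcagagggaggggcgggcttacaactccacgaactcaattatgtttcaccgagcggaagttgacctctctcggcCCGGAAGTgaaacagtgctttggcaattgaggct
Eif3l: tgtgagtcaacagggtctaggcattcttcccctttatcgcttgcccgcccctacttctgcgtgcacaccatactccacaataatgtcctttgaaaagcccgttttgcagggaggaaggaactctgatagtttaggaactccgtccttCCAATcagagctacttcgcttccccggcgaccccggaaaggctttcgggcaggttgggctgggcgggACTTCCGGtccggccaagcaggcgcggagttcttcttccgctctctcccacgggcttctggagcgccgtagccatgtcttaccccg

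The ETS core was in 8 of the 46 promoters (17.4%), against 9.07% of 8270 promoters of genes in the table. It was in 3 of the 5 promoters of genes that fell and in 5 of the 39 of genes that did not pass. The E-box CACGTG was in 10 of the 46 (21.7%, against 11.0%), among them that of Eif3k. The CCAAT box was in 14 (30.4%, against 40.3%), 4 of them among the 5 that fell, and the CRE core TGACGT was in 7 (15.2%, against 12.7%), none of them called. The GC box GGGCGG was in 34 (73.9%, against 67.2%) and the TATA box TATAAA in 4 (8.70%, against 6.46%). Each count is of promoters that hold a match on either strand, and a match is not evidence of binding.

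Among the factors that find the start codon, Eif1 and Eif1a transcripts were lower in KO. Eif1 (chromosome 11, 100319885 to 100322096) encodes eIF1, which guards against initiation at wrong codons. It had 4616, 4334, 3870 and 4242 units in KO lines 1 to 4, against 5350 and 5550 units in the WT libraries. All 4 lines were below both WT libraries, by -0.36 on the log2 scale (SE 0.0926, adjusted p = 0.0425). Eif1a (chromosome 18, 46597701 to 46616456), 1 of the 2 genes for eIF1A, which binds the decoding site with eIF1, had 3352, 3036, 2925 and 2864 units in KO lines, against 3810 and 4407 units in WT libraries. Again the groups did not overlap, with a log2 difference of -0.43 (SE 0.104, adjusted p = 0.0347). Both calls were lost without KO line 2, 3 or 4 or without WT replicate 2, with adjusted p up to 0.114 for Eif1 and 0.11 for Eif1a.

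The X-linked eIF1A gene, Eif1ax, had 1542, 1800, 1827 and 1988 units in KO lines and 2202 and 2852 units in WT libraries. Its groups did not overlap either, and its log2 value of -0.49 (SE 0.144) missed the threshold (adjusted p = 0.0578). That value was -0.67 without WT replicate 1 and -0.30 without WT replicate 2. Eif1b, a close relative of Eif1, overlapped between groups, with 170 to 294 units in KO lines and 262 and 274 units in WT libraries. The remaining 4 genes of this step also did not pass. Eif1ad, whose protein resembles eIF1A, had all 4 KO lines below WT (log2 -0.22, adjusted p = 0.119). Eif2d, which can deliver tRNA without eIF2, stood at a log2 value of -0.23, the GTPase-activating factor Eif5 at -0.08 and the subunit-joining GTPase Eif5b at 0.15. Of 8 genes, then, 2 fell and none rose, with a median of -0.23, where 7.34% of all genes fell and 9.75% rose.

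None of the 3 eIF2 subunits was called, and 1 subunit of its exchange factor eIF2B fell. Eif2s1, the alpha subunit that stress kinases phosphorylate, had 4304 units in each KO line and 4164 and 4868 units in WT libraries. Its log2 value of -0.06 had a 95% interval from -0.27 to 0.14. Eif2s2, the beta subunit, had 25024 units in KO lines 1 to 3 and 20786 units in KO line 4, against 22832 and 22827 units in WT libraries. The KO lines thus lay 1 step above and 1 step below WT. The gamma subunit gene Eif2s3x had a log2 value of 0.02 (95% interval -0.20 to 0.24). Eif2a, an unrelated initiator tRNA-binding protein despite its name, stood at -0.01. None of the 4 was called, and none had an unadjusted p below 0.05.

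Eif2b2 (chromosome 12, 85219481 to 85226628), the beta subunit of eIF2B, fell in KO. It had 712, 695, 788 and 750 units in KO lines, against 970 and 1203 units in WT libraries. All KO values were below both WT values, and the mean was 736 ± 41.5 units in KO (SD, n = 4) and 1087 ± 165 units in WT (SD, n = 2), a log2 difference of -0.55 (SE 0.121, adjusted p = 0.0268). The call was lost without KO line 1, 2 or 3 or WT replicate 2 (adjusted p up to 0.0901). The catalytic epsilon subunit Eif2b5 had 4250, 4464, 4064 and 3766 units in KO lines and 4759 and 5350 units in WT libraries, and Eif2b4, the delta subunit, stood at a log2 value of -0.30, both with all KO lines below WT. Neither passed (adjusted p = 0.0863 for Eif2b5 and 0.0843 for Eif2b4).

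The gamma subunit Eif2b3 lay on the other side, with 890, 964, 859 and 857 units in KO lines and 724 and 687 units in WT libraries. Every KO line was above both WT libraries, at a log2 value of 0.33 (SE 0.0998) that missed the threshold (adjusted p = 0.0611). Eif2b1, the alpha subunit, stood at -0.11 with overlapping groups. Of the 5 eIF2B genes 1 fell, where 7.34% of all genes did. An unadjusted p below 0.05 (limma) was found for 4 of the 5, 3 of them lower and 1 higher in KO. No share of all genes stands beside that unadjusted count.

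None of the 3 eIF2 alpha kinase genes was called or had an unadjusted p below 0.05. Eif2ak3 encodes PERK, the kinase of endoplasmic reticulum stress. It had 468, 444, 469 and 730 units in KO lines, against 636 and 590 units in WT libraries, so KO line 4 alone lay above WT. Eif2ak3 lies on chromosome 6, whose 518 genes stood higher in KO line 4 than in the other KO lines by a median log2 of 0.45. With the median of each chromosome removed per library, Eif2ak3 stood at a log2 value of -0.41 (adjusted p = 0.0352). The amino acid-sensing kinase Eif2ak4, known as GCN2, stood at 0.23 and the heme-regulated kinase Eif2ak1 at -0.03.

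In eIF3, 2 of 14 genes fell, none rose and 12 did not pass, with 12 of the 14 at a negative log2 value and a median of -0.19. Over all genes 7.34% fell, 9.75% rose and 45.7% had a negative value. The 2 that fell in eIF3 were Eif3k (chromosome 7, 28971372 to 28981864) and Eif3l (chromosome 15, 79075179 to 79094405), which form a peripheral pair of subunits in the mammalian complex. Eif3l had 6040, 5570, 5779 and 5364 units in KO lines, against 7117 and 7919 units in WT libraries. Eif3k had 3670, 3634, 3571 and 3360 units in KO lines, against 4554 and 4290 units in WT libraries. In both genes the groups were separate, with log2 differences of -0.40 (SE 0.087, adjusted p = 0.0252) for Eif3l and -0.31 (SE 0.0809, adjusted p = 0.0415) for Eif3k. The call of Eif3l was lost without KO line 2, KO line 3 or WT replicate 2 (adjusted p up to 0.0883). That of Eif3k held in none of the 6 leave-one-out fits (adjusted p up to 0.117).

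Eif3f, 1 of the 2 subunits with an MPN domain, had the largest negative value of the complex, -0.41 (adjusted p = 0.0782), with 3348, 3126, 3295 and 2717 units in KO lines and 3642 and 4689 units in WT libraries. Its log2 value was -0.59 without WT replicate 1, the WT library nearer to KO, and -0.23 without WT replicate 2. It passed with chromosome medians removed (adjusted p = 0.0491), where 20.9% of all genes did. Core subunits that hold the complex together were not called, Eif3a at -0.33 with overlapping groups and Eif3c at -0.15. Eif3b and Eif3h had all KO lines below WT at -0.23 and -0.21, while Eif3d, which can bind the cap of some mRNAs, and Eif3e stood at 0.10 and 0.12. Eif3g, Eif3i and Eif3m lay at -0.04, -0.18 and -0.24. The copies Eif3j1 and Eif3j2 stood at -0.04 and -0.01. Of the 50-base words in the longest Eif3j2 transcript of the annotation, 90.8% also occur in Eif3j1, so reads may have been split between these 2 genes.

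Of the 3 eIF4G genes, 1 rose, 1 fell and 1 did not pass, where 9.75% of all genes rose and 7.34% fell. Eif4g3 (chromosome 4, 137993022 to 138208508), which encodes eIF4G3, a scaffold that can replace eIF4G1 in the cap-binding complex, had 595, 923, 768 and 1047 units in KO lines, against 435 and 354 units in WT libraries. All lines were above WT and line 1 was the lowest of them. The mean was 833 ± 196 units in KO (SD, n = 4) and 395 ± 57.3 units in WT (SD, n = 2), 2.11-fold higher, with a log2 difference of 1.03 (SE 0.227, adjusted p = 0.0263). The call was lost without KO line 2, KO line 3 or WT replicate 2 (adjusted p up to 0.108).

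Eif4g2 (chromosome 7, 111067750 to 111083030), whose protein is also called DAP5 and lacks the eIF4E-binding region, had 20775 units in each KO line, against 25020 and 29870 units in WT libraries, a log2 difference of -0.40 (SE 0.0842, adjusted p = 0.0237). The 4 lines shared 1 step, from which the next steps lay 0.13 above and 0.23 below on the log2 scale, so spread among the lines smaller than that is not visible. The call was lost without KO line 1, 2 or 3 (adjusted p up to 0.0796). Eif4g1, the main eIF4G, had 22806 units in each KO line and in WT replicate 1 and 16043 units in WT replicate 2. Its value therefore rested on 1 library, with a log2 value of 0.25 over all libraries (adjusted p = 0.212) and of 0.51 without WT replicate 1.

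**Figure D3:**
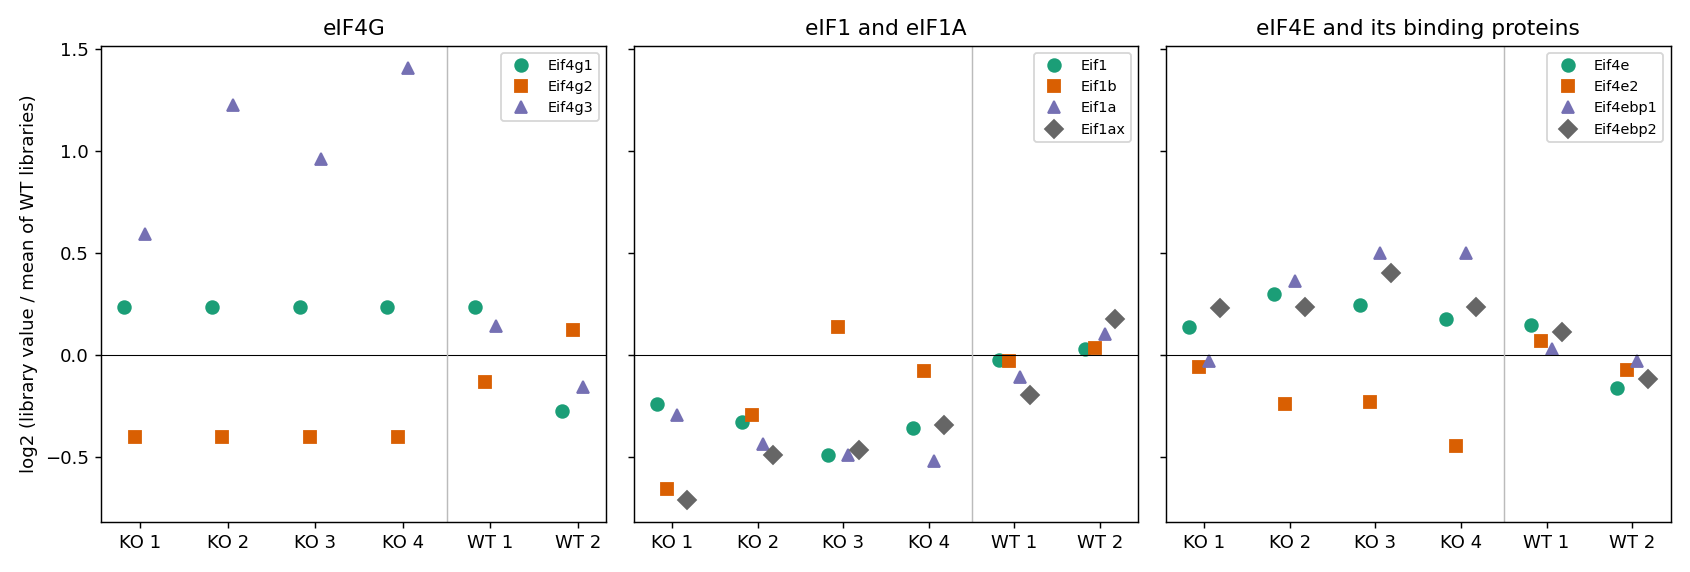
Level of each gene as log2 of the library's value over the mean of the 2 WT libraries, in KO lines 1 to 4 and WT replicates 1 and 2, for eIF4G, for eIF1 and eIF1A, and for eIF4E and its binding proteins. Eif4g3 is above WT and Eif4g2 below WT in all 4 KO lines, and Eif1, Eif1a and Eif1ax are below WT in all 4.

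Of the other 7 genes of eIF4F and its helicase partners, none passed. Eif4a1, the main eIF4A helicase, had 24983, 24983, 22770 and 22770 units in KO lines, against 22770 and 29812 units in WT libraries, so both groups shared a step. Its log2 value was -0.13, and it stood at -0.32 without WT replicate 1 and at 0.07 without WT replicate 2. Its relative Eif4a2 stood at 0.00 (95% interval -0.21 to 0.22). Eif4a3, the eIF4A relative of the exon junction complex, and the helicase cofactors Eif4b and Eif4h had all KO lines below WT, at -0.32, -0.27 and -0.36 (adjusted p = 0.0938, 0.12 and 0.0751). Without WT replicate 1 the log2 values were -0.46 for Eif4a3, -0.43 for Eif4b and -0.57 for Eif4h. Without WT replicate 2 they were -0.19, -0.11 and -0.16. Each of these fits rests on a single WT library.

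The cap-binding protein gene Eif4e had 4018, 4505, 4327 and 4138 units in KO lines and 4054 and 3266 units in WT libraries, with overlapping groups and a log2 value of 0.22 (adjusted p = 0.192). That log2 value was 0.38 without WT replicate 1 and 0.07 without WT replicate 2. Eif4e2, a relative that represses translation, stood at -0.24 (adjusted p = 0.194).

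The eIF4E-binding proteins, which block eIF4F assembly until mTORC1 phosphorylates them, did not pass. Eif4ebp1 had 6293, 8240, 9081 and 9081 units in KO lines, against 6556 and 6293 units in WT libraries. KO line 1 was at WT level and the other 3 lines were above it, a log2 value of 0.33 (SE 0.157, adjusted p = 0.176) that reached 0.45 without KO line 1 (adjusted p = 0.0332) and was 0.13 with chromosome medians removed (adjusted p = 0.511). Eif4ebp1 lies on chromosome 8, whose 603 genes stood at a median log2 deviation from their own means of -0.32 in KO line 1, 0.22, 0.20 and 0.16 in KO lines 2 to 4, -0.34 in WT replicate 1 and 0.07 in WT replicate 2. Eif4ebp2 had 1950, 1958, 2196 and 1958 units in KO lines, all above the 1794 and 1532 units in WT libraries, at 0.28 (adjusted p = 0.107). Eif4enif1, an eIF4E transporter, stood at -0.12.

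Eif6 (chromosome 2, 155819832 to 155826925), whose protein keeps the large ribosomal subunit from joining too early, fell in KO. It had 1466, 1390, 1472 and 1326 units in KO lines, against 1967 and 1767 units in WT libraries. The groups were separate, with a log2 difference of -0.40 (SE 0.0963, adjusted p = 0.0348). Its call held without WT replicate 2 and was lost without any of the other 5 libraries (adjusted p up to 0.111). Eif5a, the hypusine-bearing factor that resolves stalled elongation, had 12793 to 14358 units in KO lines and 13562 and 14358 units in WT libraries, with the 95% interval of its log2 value from -0.22 to 0.14. Its second gene, Eif5a2, had 396, 360, 402 and 452 units in KO lines, all above the 328 and 308 units in WT libraries, at 0.32 (adjusted p = 0.121).

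Among elongation factors, Eef1b2 (chromosome 1, 63176825 to 63180486) had the largest fall of the 57 genes. It encodes the beta subunit of eEF1B, the exchange factor that reloads eEF1A with GTP. It had 10936, 9678, 10936 and 10065 units in KO lines, against 14360 and 20699 units in WT libraries. The lines lay close together, while WT replicate 2 was far above WT replicate 1. The mean was 10404 ± 635 units in KO (SD, n = 4) and 17530 ± 4482 units in WT (SD, n = 2), a log2 difference of -0.73 (SE 0.146, adjusted p = 0.0202). It was -0.47 without WT replicate 2 and -0.99 without WT replicate 1, called in both fits, and the call was lost without KO line 2 or 3 (adjusted p up to 0.0669).

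None of the other eEF1 genes was called. Eef1d, the delta subunit of the same exchange factor, had 5550, 5550, 5550 and 5926 units in KO lines and 6290 and 5454 units in WT libraries, at a log2 value of -0.05 (95% interval -0.26 to 0.15). Eef1g, the gamma subunit, had 29831, 36436, 36436 and 29831 units in KO lines and 29831 and 29828 units in WT libraries. That is 1 step above WT in lines 2 and 3 and the same step in the others. Eef1a1, the factor that delivers tRNAs to the ribosome, was at the ceiling of 78894 units in all 6 libraries, so no difference in it can be seen in these values. Eef2, which moves the ribosome, had 29828, 36433, 24993 and 24993 units in KO lines and 22786 and 29831 units in WT libraries, and its kinase Eef2k had 220 to 368 units in KO lines and 414 and 354 units in WT libraries. Both overlapped between groups, and neither had an unadjusted p below 0.05.

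Coarse values limited the abundant members. Of the 57 genes, 12 averaged at least 10000 units, a level that 155 of all 10988 genes reached. Eef1a1, Eif2s1, Eif4g1 and Eif4g2 had a single value in all 4 KO lines, as did 0.218% of all genes. Eif2s1, at 4304 units, is not on the coarse part of the scale. Its next steps lay only 0.0077 above and 0.0091 below on the log2 scale. Sequence shared with other genes makes some levels uncertain, and its effect on the values was not tested. In 50-base words of the longest annotated transcript, 65.3% of Eif4a1, 64.3% of Eef1g, 59.2% of Eef1a1 and 31.6% of Eif1 occur in transcripts of other genes, against 5.98% of Eef1b2 and none of Eif2b2, Eif3k, Eif3l, Eif4g3 and Eef1e1.

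Eef1e1 (chromosome 13, 38644207 to 38659058), named for its likeness to an elongation factor, encodes a scaffold of the multi-tRNA synthetase complex also known as AIMP3. It rose in KO, with 1379, 1392, 1402 and 1396 units in KO lines, against 1108 and 1044 units in WT libraries. The mean was 1392 ± 9.74 units in KO (SD, n = 4) and 1076 ± 45.3 units in WT (SD, n = 2), a log2 difference of 0.37 (SE 0.0848, adjusted p = 0.0304). The 4 lines lay close together, above both WT libraries. The call held without WT replicate 1 and was lost without any of the other 5 libraries (adjusted p up to 0.106).

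**Figure D4:**
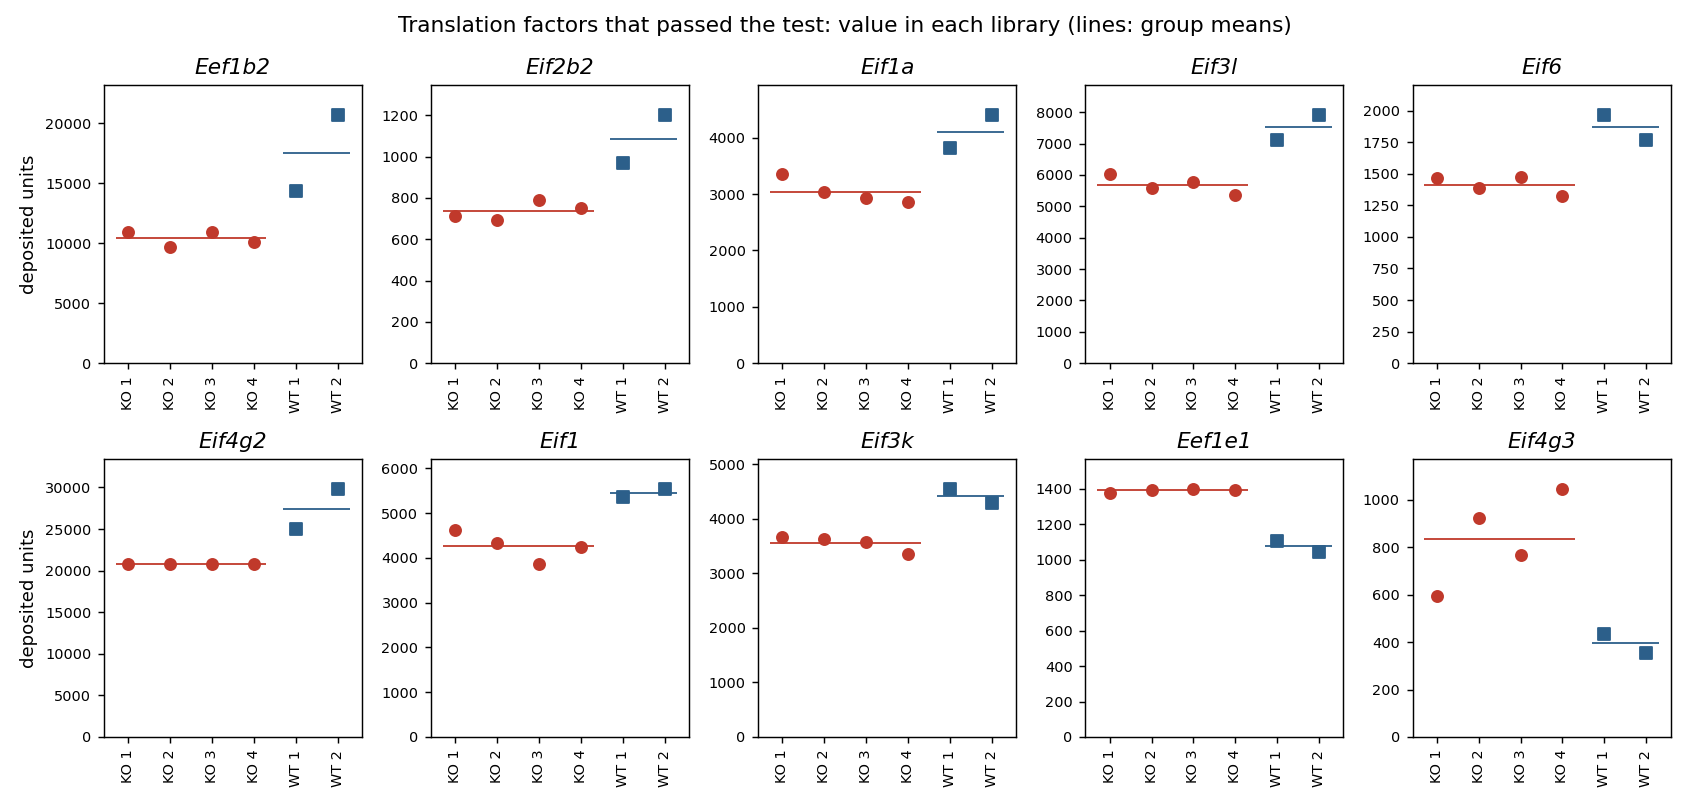
Deposited units of the 10 called genes in KO lines 1 to 4 (circles) and WT replicates 1 and 2 (squares), with the group means as lines. In all 10 genes the 4 KO lines lie on 1 side of both WT libraries, below them in 8 and above them in Eef1e1 and Eif4g3.

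**Figure D5:**
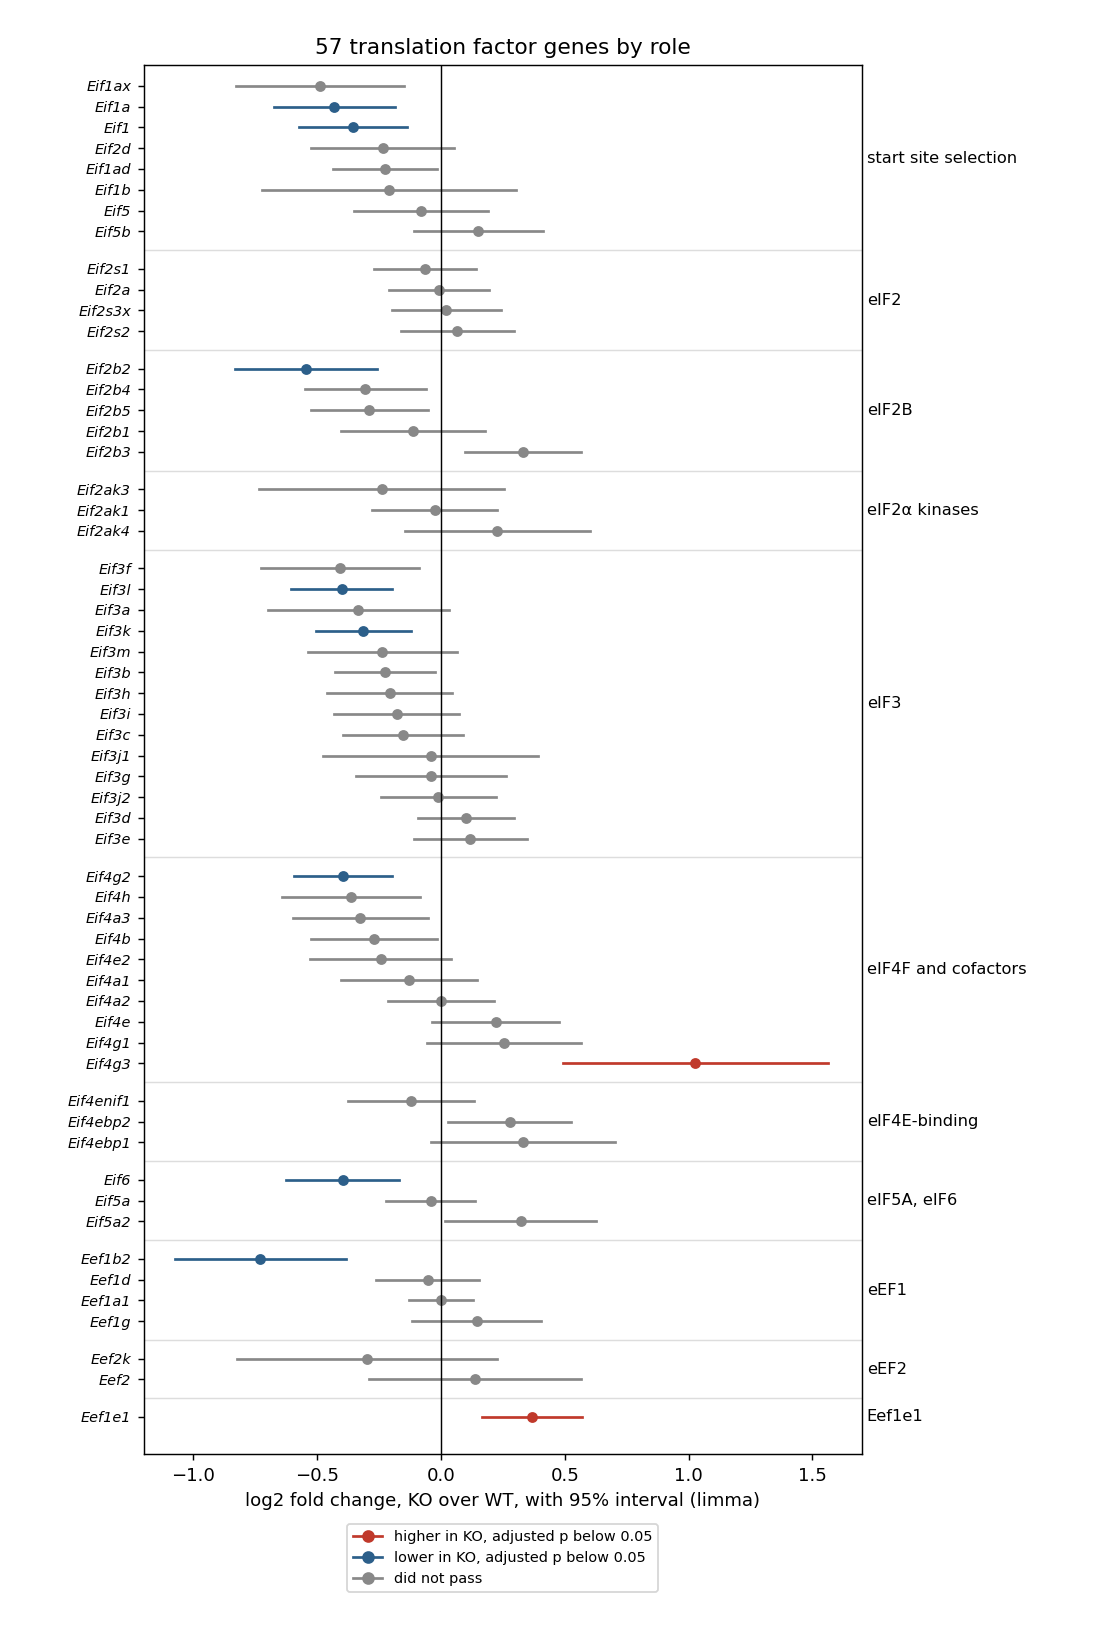
Log2 fold change, KO over WT, of the 57 genes with its 95% interval (limma), arranged by role. The eIF2 subunits lie near 0, eIF3 lies mostly left of 0, and the eIF4F group holds both Eif4g2 at -0.40 and Eif4g3 at 1.03.

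Around the factors themselves stand proteins that touch the cap and poly(A) tail. Of 22 such genes, 4 rose, 1 fell and 17 did not pass (median log2 0.01). Over all genes 9.75% rose and 7.34% fell. Pabpc1, the main poly(A)-binding protein, was at the ceiling of 78894 units in each KO line, against 29870 and 36464 units in WT libraries. Its log2 difference was 1.26 (SE 0.0866, adjusted p = 0.00181, limma). The next step lay 1.11 below the ceiling on the log2 scale. Neither the size of this difference nor the lack of spread among KO lines is therefore finely measured. Any rise above the ceiling is unseen. Ddx3x, a DEAD-box helicase that helps initiation on structured leaders, had 15988, 14340, 14340 and 20656 units in KO lines, against 36416 and 29806 units in WT libraries (log2 -1.03, SE 0.167, adjusted p = 0.0118). Angel1, an eIF4E-binding protein, had 450, 370, 396 and 394 units in KO lines, against 176 and 208 units in WT libraries (adjusted p = 0.0076). These 3 calls held with any library left out. Gigyf2, which works with eIF4E2 in repression, rose by 0.81 (adjusted p = 0.0251), a call that 3 of the 6 leave-one-out fits did not keep (adjusted p up to 0.0764).

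A list of 16 genes joined the mTORC1 pathway, which controls eIF4E-binding proteins, with related kinases and an mTORC2 subunit. Of these, 2 rose, 2 fell and 12 did not pass (median -0.14). The shares over all genes were 9.75% higher and 7.34% lower. Ddit4, a stress-induced inhibitor of mTORC1, had 2690, 3190, 3046 and 4456 units in KO lines, against 745 and 1008 units in WT libraries, a log2 difference of 1.90 (SE 0.215, adjusted p = 0.00495). Deptor, an mTOR inhibitor, rose by 0.53 (adjusted p = 0.0177). Rictor, the defining subunit of mTORC2, had 752, 716, 691 and 762 units in KO lines, against 1304 and 1548 units in WT libraries (log2 -0.95, adjusted p = 0.00521). Akt1s1, an mTORC1 subunit known as PRAS40, stood at -0.75 (adjusted p = 0.0211). The calls of Ddit4 and Rictor held with any library left out, while those of Deptor and Akt1s1 were lost in 2 and 3 of the 6 fits (adjusted p up to 0.0692 and 0.0617).

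Of 18 genes of the integrated stress response, 1 rose, 3 fell and 14 did not pass (median -0.10). The list joins the programme downstream of eIF2 alpha phosphorylation with regulators of that phosphorylation. Among all genes 9.75% rose and 7.34% fell. Ppp1r15a, the phosphatase subunit that reverses that phosphorylation, had 702, 783, 719 and 778 units in KO lines, against 1210 and 1198 units in WT libraries (log2 -0.68, SE 0.0977, adjusted p = 0.00827). Impact, an inhibitor of GCN2 activation, had 2146, 1890, 1861 and 1979 units in KO lines, against 4346 and 3086 units in WT libraries (log2 -0.89, adjusted p = 0.012). Gcn1l1, which activates GCN2, rose by 0.39 (adjusted p = 0.0204). The cystine transporter gene Slc7a11 stood at -1.43 (adjusted p = 0.0485). Of the downstream genes, Atf4, Atf5, Ddit3 and Phgdh stood at -0.23, -0.37, -0.40 and -0.13. Asns, Trib3, Chac1, Psat1 and Vldlr, also downstream, stood at 0.32, 0.33, 0.98, 0.19 and 0.20, and none of these genes was called. Calls of Ppp1r15a and Impact held with any library left out, and those of Gcn1l1 and Slc7a11 were lost in 2 and 5 of the 6 fits (adjusted p up to 0.08 and 0.128).

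The remaining lists held 2 calls, where 17.1% of all genes were called. Of 13 genes for the diphthamide of eEF2 and the hypusine of eIF5A, 1 fell, Odc1 of polyamine synthesis (log2 -0.56, adjusted p = 0.0348, lost in 5 of the 6 leave-one-out fits, where adjusted p reached 0.0996). Of 11 mitochondrial translation factors, 1 rose, Guf1 (log2 0.48, adjusted p = 0.0441, lost in all 6 such fits, adjusted p up to 0.116). In limma none of 9 termination and recycling genes was called, and 2 had an unadjusted p below 0.05, with no share of all genes beside it.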

How the data were processed

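The authors deposited a table with 1 normalized score per gene and library, headed as CPM in its title. The values are whole numbers with about equal totals in all libraries and shared steps at the top, so they were treated as a score, and the test planned for CPM was kept on a log scale. Per the submitters' processing notes, RSEM 1.2.17, Bowtie2 2.2.0 and build mm10 were used. No source used here gives the annotation or the normalization. Depth is unknown, so no counting interval is given. Of 10989 rows, 1 without a gene name was left out.

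Values were divided by 14.7, which brings a library to about the total of a CPM column, 1 was added and log2 taken, so fold changes of low genes are understated. A filter (scaled value of 1 in 2 libraries) removed 0 genes. KO and WT were compared with limma 3.58.1 in R 4.3.3 (lmFit, then eBayes along the mean-variance trend; two-sided; no covariate; 4 residual degrees of freedom), with Benjamini-Hochberg adjustment over all 10988 genes. For a single gene, the lowest p of an exact permutation test in this design is 0.0667. Positions and transcripts came from GENCODE M21 (mm10).

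The members, lists and tests were chosen with earlier results of these data known. Named genes were Ddx5, every called member, the member with the largest change in each role group, a set of paralogs, and up to 4 called genes of each list. Other members are named to account for all 57. The alternatives were other scalings, pseudocounts, filters and variance models, a replicate block, removal of chromosome medians and each library left out.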

Additional observations from a re-analysis of the deposited data

Results flagged for a closer look

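Among 41 genes named by rule, 3 had 1 KO line set apart from the other 3, by a gap to its nearest neighbour whose share of the group's range passes Dixon's 95% critical value. Chance flags about 1 in 20 such groups. Eif2ak3 was flagged for KO line 4, the highest (gap share 0.913), Eif2s2 for KO line 4, the lowest, which differs from 3 identical values by steps of the scale (gap share 1), and Eif4ebp2 for KO line 3, the highest (gap share 0.967).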

How the results depend on the processing

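The 10 calls among translation factors were unchanged by trimmed-mean scaling, quantile normalization, pseudocounts of 5 and 0.1, a minimum of 10, no filter and robust eBayes. Removal of chromosome medians kept them and added 3, while calls over all genes rose from 17.1% to 20.9%. Without the variance trend 4 remained (2 higher, 2 lower), while 15.4% of all genes were called. With a library left out, calls lay between 0 and 20 (0 to 6 higher, 0 to 14 lower), calls over all genes between 472 and 3304, and calls in the pathway lists between 7 and 21, where 15 passed with all libraries. Leaving out a WT replicate leaves 1 WT library, assumed to vary like the KO lines.

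KO line 1 deviated with WT replicate 1 (r = 0.145 across genes). KO lines 2 and 3 deviated with WT replicate 2 (r = 0.097 and 0.096), and KO line 4 with neither (r = 9.4e-05 with WT replicate 1). The labels number lines in 1 group and replicates in the other, so the samples share only a number. The replicate block gave 0 calls among translation factors in limma, so none of the 10 passed (0 higher, 0 lower; 10 at an unadjusted p below 0.05), 1 in the pathway lists and 20 over all genes. It leaves 1 residual degree of freedom. The median log2 fold change of all genes was 0.0071 with trimmed-mean scaling, 0.018 with quantile normalization, 0.035 with a minimum of 10, 0.00082 with chromosome medians removed and 0.024 to 0.061 with a library left out. Of values for single named genes under these settings, 546 stayed on their side of the threshold, 101 lost a call, 9 gained one and 0 called values changed sign. The step at the top of the scale limits what can be seen for Eef1a1, Eef1g, Eef2 and Pabpc1. Ddx5 in both WT libraries and Ddx3x in WT replicate 1 lay on the step below the ceiling. The sizes of their differences are therefore also coarse.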
